A study of Mus musculus with 9 samples.

Results

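Intermediate filaments form the flexible part of the cytoskeleton. Transcripts of 8 genes that build them in the brain were examined in mouse hippocampus, 4 of them glial (Gfap, Vim, Nes and Synm) and 4 of them neuronal (Nefl, Nefm, Nefh and Ina). The genes were chosen by name, with no threshold on a measured value but with earlier results of these data known, from the 18275 genes of the deposited table. All 8 were present and passed the filter on low values, a mean normalised signal of at least 10, which left 16196 genes for testing. The normalised signal is the estimated read count of a gene after the authors' batch adjustment and scaling.

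RNA had been sequenced from the hippocampus of adult male mice of strain C57BL/6N, with 1 library per animal. The 4 Nestin;BrafKE/+ animals (genotype label K499E) carried 1 Braf allele encoding an overactive kinase of the RAS/ERK pathway. Nestin-Cre, a transgene driven by the nestin promoter, turned this allele on in embryonic neural stem cells, which give rise to neurons and glia alike. The 5 Braf+/+ animals (labelled WT) were littermate controls with wild-type Braf on both chromosomes. Whether they carried Nestin-Cre or a floxed allele is not given in the sources used here. Library names fell into 3 series, called A (1 Nestin;BrafKE/+ and 3 Braf+/+), B (2 and 1) and C (1 and 1) here, and the sources do not say what a series stands for. Of all genes tested, 466 (2.88%) passed an adjusted p under 0.05 in limma, which models each gene across the libraries with genotype and series as terms. The median log2 fold change of all genes was 0.000334 and the median of its absolute size was 0.121. Braf itself was lower in Nestin;BrafKE/+ (2264 ± 144 against 2786 ± 153, SD, adjusted p = 0.0378 in limma). All 11 markers of hippocampal neurons had signal in all 9 libraries. Choroid plexus and ependymal transcripts, by contrast, had a summed signal from 1781 to 24930 in Nestin;BrafKE/+ and from 4949 to 392500 in Braf+/+, highest in Braf+/+ replicates 2 and 4. Library totals lay between 19550000 and 20090000. The number of reads behind a value is unknown, and errors are therefore the spread between animals.

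Filament proteins are grouped into types by sequence. GFAP and vimentin are type III proteins. GFAP is the main filament of mature astrocytes and is widely used as a marker of reactive astrocytes, while vimentin is made by immature astrocytes, ependyma, endothelium and fibroblasts. Nestin and synemin, large proteins that join vimentin or GFAP in mixed filaments, are found in neural stem cells and, for synemin, in some astrocytes. In neurons the light, medium and heavy neurofilament subunits (Nefl, Nefm and Nefh) and alpha-internexin (Ina) assemble together, and they set the calibre of axons. Nefl is the core subunit, Nefm and Nefh bring long side arms, and internexin appears earlier in development than the others.

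Promoter sequence was compared between the type III genes, because Gfap passed the test between genotypes and Vim, its closest relative among the 8, did not. The sequences are from RefSeq on GRCm38.p6 and run 5′ to 3′ on the strand of the gene, from 250 bases before to 50 bases after the start of the gene. RefSeq promoters were matched for 5 of the 8 genes (Gfap, Vim, Nes, Synm and Ina). The Gfap window is chr11:102897151-102897450 on the minus strand and the Vim window is chr2:13574061-13574360 on the plus strand. Capitals mark exact matches to a STAT-type motif (TTCNNNGAA) in Gfap and to a TATA motif (TATAAA) in Vim. Whether these motifs bear on the difference between genotypes was not tested.

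Gfap: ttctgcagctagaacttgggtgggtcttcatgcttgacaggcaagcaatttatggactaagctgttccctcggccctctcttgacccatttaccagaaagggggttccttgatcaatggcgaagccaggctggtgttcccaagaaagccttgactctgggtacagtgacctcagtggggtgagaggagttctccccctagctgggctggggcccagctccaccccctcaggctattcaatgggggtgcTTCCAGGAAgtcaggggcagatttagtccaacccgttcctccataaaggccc

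Vim: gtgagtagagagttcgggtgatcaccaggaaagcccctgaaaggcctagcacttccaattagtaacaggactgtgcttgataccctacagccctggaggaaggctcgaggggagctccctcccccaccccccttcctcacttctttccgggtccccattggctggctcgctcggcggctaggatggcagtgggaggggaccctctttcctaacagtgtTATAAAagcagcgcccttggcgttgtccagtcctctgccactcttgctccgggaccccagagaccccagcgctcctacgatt

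The STAT-type site of Gfap, TTCCAGGAA, spanned the annotated start, from position -2 to 6 with the start counted as 0. The start is that of the RefSeq window, and other starts of the gene were not examined. The TATA motif of Vim lay at -32 to -27. Both strands of the 5 windows were also searched for an AP-1 motif (TGANTCA), an ETS motif (CCGGAAG), a CRE (TGACGTCA) and an EGR1 motif (GCGTGGGCG), and these letters were in 0 of the 5. No other motif of the search overlapped either marked site, but only exact letters were searched. In the Gfap window CAGGAAG, which overlaps the STAT-type site, differs from the ETS letters by a single base. Near the end of that window CATAAA differs from the TATA letters by a single base. Near matches were not counted in any window or in the background. Among 32851 RefSeq promoters of the same length, the STAT-type letters occurred in 8.3%, the TATA letters in 13.6%, AP-1 in 7.81%, ETS in 8.86%, CRE in 1.79% and EGR1 in 0.612%. GC content was 55.7% in the Gfap window and 59.3% in that of Vim, with 58.7% for Nes, 72.7% for Synm and 71.7% for Ina.

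The glial genes were compared between genotypes first. Gfap rose in Nestin;BrafKE/+, and 1 of the 4 glial genes thus passed an adjusted p under 0.05 in limma, beside 2.88% of all genes tested. Vim and Synm had higher means and Nes a lower mean, none of them past the threshold. The median log2 fold change of the 4 genes was 0.16.

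Gfap (ENSMUSG00000020932) lies at chr11:102778159-102791738 on GRCm39, minus strand, and its canonical transcript has 9 exons and 2876 bases. Its normalised signal in Nestin;BrafKE/+ replicates 1 to 4 was 12045, 12330.5, 11755 and 9740.1. In Braf+/+ replicates 1 to 5 it was 6672, 7106, 7203, 6410.5 and 8354. Every Nestin;BrafKE/+ animal lay above every control, and the closest pair, Nestin;BrafKE/+ replicate 4 and Braf+/+ replicate 5, formed series C. Groups without overlap were seen for 15.7% of all genes, and among the 8 filament genes for Gfap alone. On the log2 scale Gfap rose by 0.68 (SE 0.0956, 95% interval 0.47 to 0.89), a fold of 1.60 (1.39 to 1.86), and limma gave an adjusted p of 0.00576. An absolute log2 fold change of this size or more was found in 628 genes (3.88%). The log2 difference within a series was 0.79 (A), 0.91 (B) or 0.22 (C). All 3 series thus shared the direction, with the smallest difference in C. An exact two-sided permutation test gave p = 0.00794 over all 126 ways to assign the genotypes and p = 0.0417 over the 24 ways within series, in both cases the smallest value possible. The adjusted p rose to 0.0742 without Nestin;BrafKE/+ replicate 1 (log2 fold change 0.61) and to 0.0525 without Braf+/+ replicate 4 (0.56), so the call was lost in each case. Each was the only library of its genotype in its series (A and B). Leaving it out took that series out of the genotype estimate, so the effect of 1 animal cannot be told apart from that loss. In bulk tissue, a change in the number of cells of a type and a change in RNA per cell cannot be told apart.

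Vim (ENSMUSG00000026728, chr2:13578738-13587639, plus strand, 9 exons) encodes vimentin, the partner of GFAP in astrocyte filaments. Its signal was 1064, 972.6, 1080.2 and 865.4 in Nestin;BrafKE/+ replicates 1 to 4 and 724.3, 1004, 826.3, 809.5 and 991.8 in Braf+/+ replicates 1 to 5. The ranges overlapped, with 2 Nestin;BrafKE/+ animals above all controls. For Vim the log2 fold change was 0.20 (95% interval -0.06 to 0.46, adjusted p = 0.412, limma). Series A and B gave differences of 0.33 and 0.34, and series C gave -0.20. The highest control was Braf+/+ replicate 2, the library with the most choroid plexus signal, and without it the log2 fold change was 0.24 (adjusted p = 0.312, limma). The summed signal of 14 endothelial and mural markers, genes of cells that also make vimentin, was 8680 to 9752 in Nestin;BrafKE/+ and 7848 to 10410 in Braf+/+, and that of 8 meningeal fibroblast markers was 3673 to 4325 against 2258 to 7565. Of these 8 fibroblast markers, 1 rose and 0 fell at an adjusted p under 0.05 in limma, beside 2.88% of all genes. The gene that rose was Col1a1, a fibrillar collagen (log2 fold change 0.96, adjusted p = 0.0214, limma). The median log2 fold change of the 8 was 0.28. The part of these cells in the Vim values was not tested.

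Nes (ENSMUSG00000004891, chr3:87878385-87887758, plus strand, 4 exons) encodes nestin, a filament of neural stem cells, and had the lowest signal per kb of the 8 genes. Its signal was 176.7, 214.6, 171.7 and 203.4 in Nestin;BrafKE/+ and 202.7, 230.0, 306.6, 234.0 and 222.2 in Braf+/+. The ranges overlapped, 2 Nestin;BrafKE/+ animals lay below all controls, and the control spread was set by the 306.6 of Braf+/+ replicate 3. Nes thus had a log2 fold change of -0.31 (95% interval -0.63 to 0.01, adjusted p = 0.289, limma), and the differences were -0.46, -0.28 and -0.13 in series A, B and C. Without Braf+/+ replicate 3 the value was -0.24 (adjusted p = 0.317, limma). The exact permutation p was 0.0397 over all assignments and 0.125 within series, neither of them adjusted for the 8 genes tested in this way. Of 12 markers of neural stem and progenitor cells, 1 rose and 0 fell at an adjusted p under 0.05 in limma, beside 2.88% of all genes. The gene that rose was Hopx, a gene of radial glia-like stem cells and astrocytes (log2 fold change 0.56, adjusted p = 0.0048, limma). Of the 12, 5 had a positive and 7 a negative log2 fold change, with a median log2 fold change of -0.01. The stem cell factor Sox2 was at 0.00, and Sox11, a gene of young neurons, was at -0.24 (adjusted p = 0.236, limma, groups without overlap). The proliferation genes Mki67 and Top2a were at -0.01 and -0.51, the latter with an adjusted p of 0.420 in limma. The part of stem cells, or of other cells such as endothelial cells, in the Nes values was not tested.

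Synm (ENSMUSG00000030554, chr7:67379908-67409527, minus strand, 4 exons) encodes synemin, which links filaments to other parts of the cell. It had a signal of 1309, 1097, 1292 and 1218 in Nestin;BrafKE/+ and 1023, 1151, 1148, 1201 and 1139.0 in Braf+/+. Here 3 of 4 Nestin;BrafKE/+ animals lay above all controls, and replicate 2 lay below all controls but 1. This gave a log2 fold change of 0.12 (95% interval -0.05 to 0.29, adjusted p = 0.463, limma), with differences of 0.24, -0.01 and 0.10 by series. The gene overlaps Ttc23 on the opposite strand. The libraries were stranded, but the strand setting of the counting is not given in the sources used here. Reads of Synm and Ttc23 may therefore not be fully separated.

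**Figure D1:**
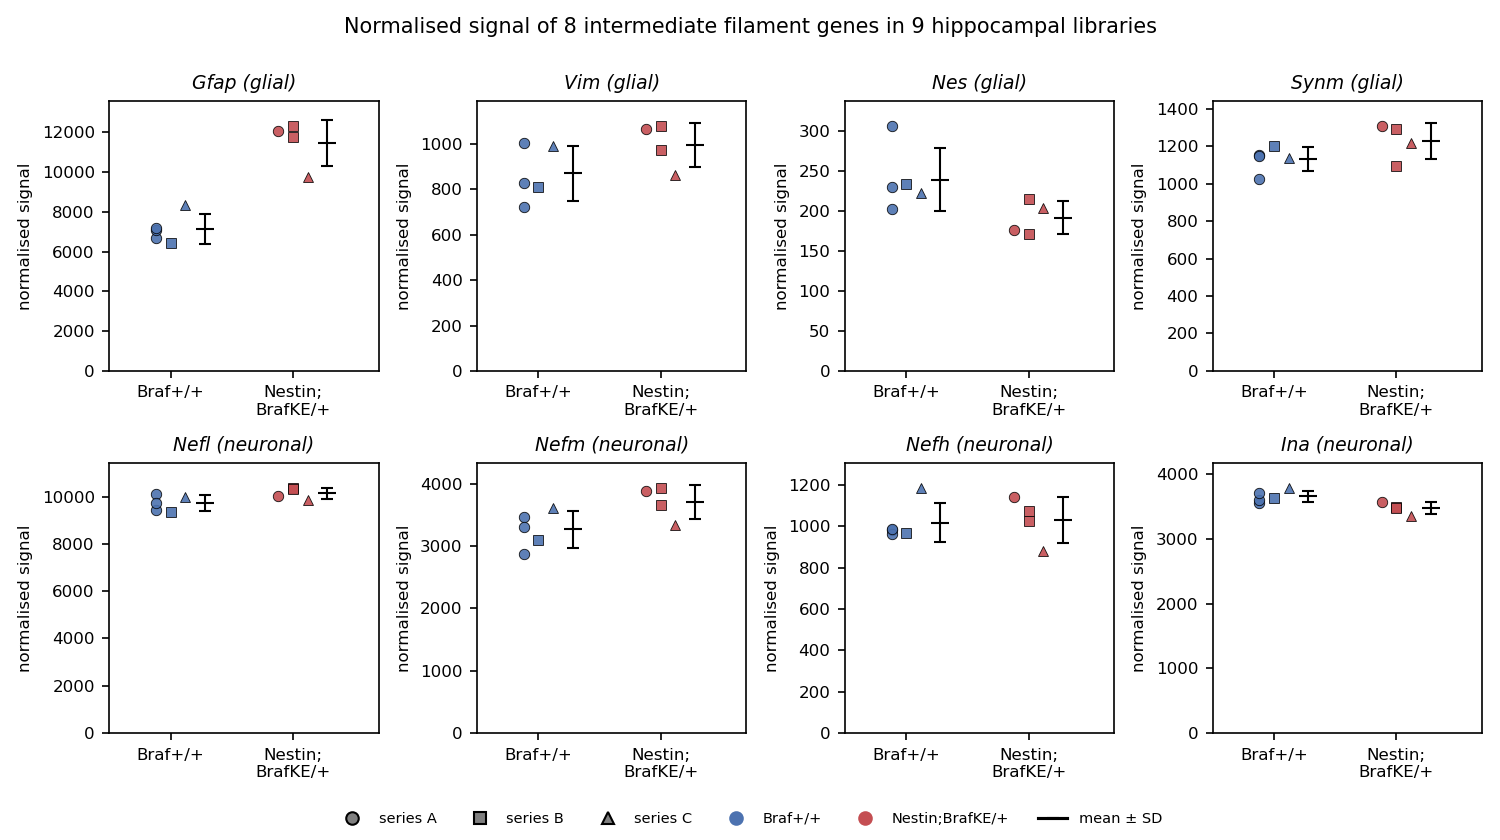
Normalised signal (vertical axis, from 0) of the 8 filament genes in each library, with Braf+/+ in blue (n = 5), Nestin;BrafKE/+ in red (n = 4), marker shape for the series, and bars for mean ± SD. Gfap is the gene whose 4 Nestin;BrafKE/+ values, 9740.1 to 12330.5, all lie above the 5 control values, 6410.5 to 8354.

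The neuronal genes were compared next. In limma 0 of the 4 neuronal filament genes passed an adjusted p under 0.05, and 0 of the 4 had an unadjusted p under 0.05, beside 18.5% of all genes. The median log2 fold change of the 4 was 0.04. Nefl, Nefm and Nefh had higher means in Nestin;BrafKE/+, and Ina a lower mean. Intervals were narrow for Nefl and Ina, whose libraries spread little, and wider for Nefm and Nefh.

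Nefl (ENSMUSG00000022055, chr14:68321268-68326544, plus strand, 4 exons) encodes the light subunit, on which the other subunits assemble. The Nestin;BrafKE/+ values were 10039, 10370.5, 10317 and 9869 and the Braf+/+ values were 10094, 9416.5, 9735, 9356 and 9997. All 9 animals lay close together, and 2 Nestin;BrafKE/+ animals of series B were above all controls. Between genotypes the log2 fold change was 0.06 (SE 0.0469, 95% interval -0.04 to 0.17, adjusted p = 0.520, limma), so the fold lay between 0.972 and 1.12 with 95% confidence. The differences by series were 0.04, 0.14 and -0.02.

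Nefm (ENSMUSG00000022054, chr14:68320039-68362305, minus strand, 3 exons), the medium subunit, had values of 3882, 3664, 3930.5 and 3333 in Nestin;BrafKE/+ and of 3467, 2872, 3299, 3091 and 3614 in Braf+/+. Here 3 of 4 Nestin;BrafKE/+ animals lay above all controls, and the fourth, replicate 4, lay within the control range. The log2 fold change of 0.18 (95% interval -0.0007 to 0.36) had an unadjusted p of 0.0507 and an adjusted p of 0.273 in limma. The differences were 0.28 and 0.30 in series A and B and -0.12 in series C. Without either library of series C it rose to 0.29 on the log2 scale (adjusted p = 0.0897, limma, when Nestin;BrafKE/+ replicate 4 was left out). Nefl lies within the annotated span of Nefm on the opposite strand, but the nearest base of the canonical Nefm transcript lies 30188 bases beyond the end of Nefl.

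Nefh (ENSMUSG00000020396, chr11:4888740-4898130, minus strand, 4 exons) encodes the heavy subunit of mature, large axons. Nestin;BrafKE/+ animals had 1141.5, 1027, 1073 and 878.4, and Braf+/+ animals had 981.7, 964.1, 987.6, 968.2 and 1185. The series C pair held both extremes, the highest value in the control and the lowest in Nestin;BrafKE/+. For Nefh the log2 fold change was 0.02 (95% interval -0.20 to 0.23, adjusted p = 0.954, limma), and its sign changed when Nestin;BrafKE/+ replicate 1 was left out (-0.12). Series A and B gave differences of 0.22 and 0.12, and series C gave -0.43. Nefh overlaps Ap1b1 on the opposite strand.

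Ina (ENSMUSG00000034336, chr19:47003069-47013770, plus strand, 3 exons) encodes alpha-internexin. Its values were 3578, 3494, 3482 and 3356 in Nestin;BrafKE/+ and 3556, 3596, 3704.5, 3634 and 3788 in Braf+/+. Here 3 of 4 Nestin;BrafKE/+ animals lay below all controls, and replicate 1 lay just above the lowest control. Ina had a log2 fold change of -0.07 (SE 0.047, 95% interval -0.18 to 0.03, adjusted p = 0.454, limma), and the differences were -0.02, -0.06 and -0.17 by series. The exact permutation p was 0.0317 over all assignments and 0.167 within series. Ina overlaps Nt5c2 on the opposite strand.

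**Figure D2:**
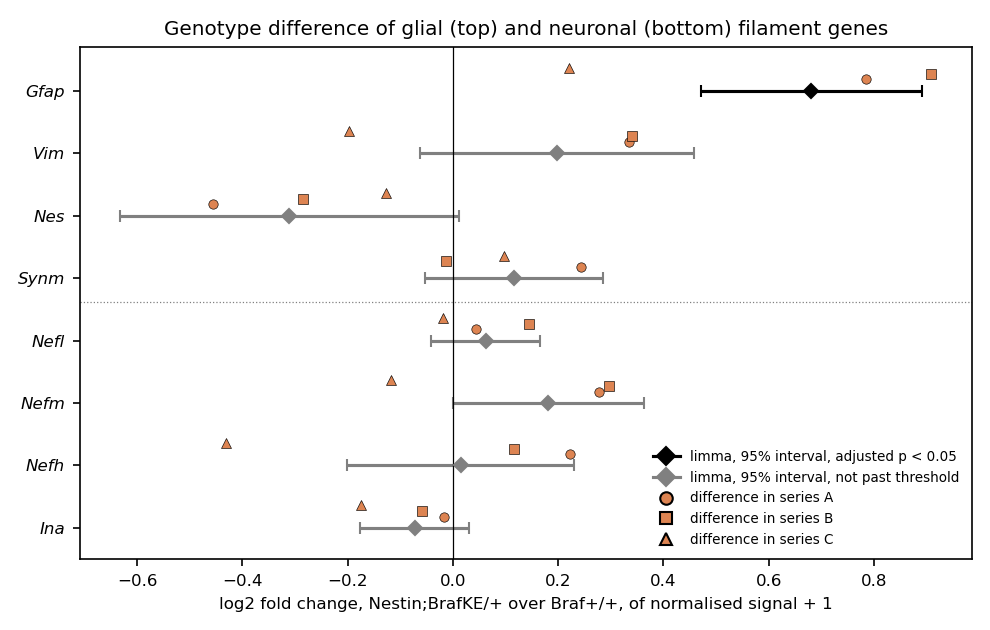
Log2 fold change of Nestin;BrafKE/+ over Braf+/+ for each filament gene (horizontal axis), with diamonds and bars for the limma estimate and its 95% interval and small markers for the difference within each series. The interval of Gfap, 0.47 to 0.89, lies to the right of 0, while those of the other 7 genes include 0, and the series C triangle is the lowest marker for Gfap, Vim, Nefl, Nefm, Nefh and Ina.

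Other genes of neurons were read beside these values. Of 11 markers of hippocampal neuron types, 3 rose and 1 fell at an adjusted p under 0.05 in limma, beside 2.88% of all genes. Those that rose were Wfs1 (log2 fold change 0.61), Calb1 (0.43) and Fibcd1 (0.40), and Lct fell (-0.39). The summed signal of the 11 was 26200 to 27250 in Nestin;BrafKE/+ and 22830 to 23930 in Braf+/+, with no overlap. Without Nestin;BrafKE/+ replicate 1, Nestin;BrafKE/+ replicate 3 or Braf+/+ replicate 4, 1 rose and 0 fell. Of 13 broad neuron markers, 0 passed an adjusted p under 0.05 in limma and 6 had an unadjusted p under 0.05 (18.5% of all genes did), with 3 in each direction and a median log2 fold change of 0.05. Their summed signal was 244000 to 267800 in Nestin;BrafKE/+ and 242200 to 260900 in Braf+/+. Of 10 markers of axons and projecting neurons, 0 passed and 3 had an unadjusted p under 0.05, all lower, beside 18.5% of all genes. These were named after their values had been seen (Mapt, which encodes tau, with a log2 fold change of -0.13, Map1b with -0.16 and Cntnap1 with -0.16). The adjusted p of these 3 genes was 0.166, 0.217 and 0.253 in limma. The summed signal of the 10 was 34330 to 36430 in Nestin;BrafKE/+ and 37500 to 39000 in Braf+/+, with no overlap. Their mean log2 level, less each gene's mean over the 9 libraries, did overlap (-0.061 to 0.005 against -0.033 to 0.086).

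Levels were then compared between the genes after division by the length of the canonical transcript, which ran from 2193 bases for Vim to 7904 for Synm. Per kb, Nefl led in Braf+/+ (2839 ± 97.0, SD, n = 5) and Gfap came next (2486 ± 260). In Nestin;BrafKE/+ the order was turned, with Gfap at 3987 ± 409 (n = 4) and Nefl at 2964 ± 69.1. Gfap lay above Nefl in 4 of 4 Nestin;BrafKE/+ animals and in 0 of 5 controls. This order depends on the transcript lengths used, since Gfap has 24 annotated transcripts and Nefl has 8. Before scaling, Nestin;BrafKE/+ replicate 4 had less Gfap than Nefl (9740.1 against 9868.7). Nefm and Ina were near each other in both groups, and Nefm was above Ina in 3 of 4 Nestin;BrafKE/+ animals (1107 ± 81.4 against 1066 ± 28.1) and in 0 of 5 controls (977.5 ± 88.2 against 1121 ± 28.3). Below them came Vim, Nefh, Synm and Nes in all 9 animals, with Nes at 31.3 ± 3.38 in Nestin;BrafKE/+ and 39.0 ± 6.47 in Braf+/+.

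As a share of the summed signal per kb of the 8 genes, Gfap made up 39.7% ± 1.79 in Nestin;BrafKE/+ (37.2% to 41.4%) and 30.1% ± 1.58 in Braf+/+ (28.5% to 32.3%). The 4 glial genes together made up 43.6% to 47.4% and 34.6% to 39.3%, respectively. When 1 gene takes a larger share of a fixed whole, the shares of the others fall with it, so the lower share of Nefl (29.6% against 34.4%) does not show less Nefl signal. Ratios between pairs do not have this limit. Gfap per kb was 1.18 to 1.43 times Nefl in Nestin;BrafKE/+ and 0.787 to 0.995 times Nefl in Braf+/+, and it was 8.3 to 9.67 times Vim against 5.4 to 7.02 times Vim. Among the neuronal subunits, the ratio of Nefl to Ina was 2.78 ± 0.0729 in Nestin;BrafKE/+ (2.67 to 2.83) and 2.53 ± 0.0979 in Braf+/+ (2.45 to 2.7). The ratio of Nefl to Nefm was 2.69 ± 0.172 against 2.92 ± 0.184, and that of Nefl to Nefh was 11.8 ± 1.21 against 11.4 ± 0.824. The ratio of Nefm to Nefh was 4.39 ± 0.202 (4.14 to 4.62) against 3.92 ± 0.272 (3.63 to 4.3). The ranges of the groups overlapped for each of these neuronal ratios, that of Nefl to Ina included. The ratios are given as descriptions.

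**Figure D3:**
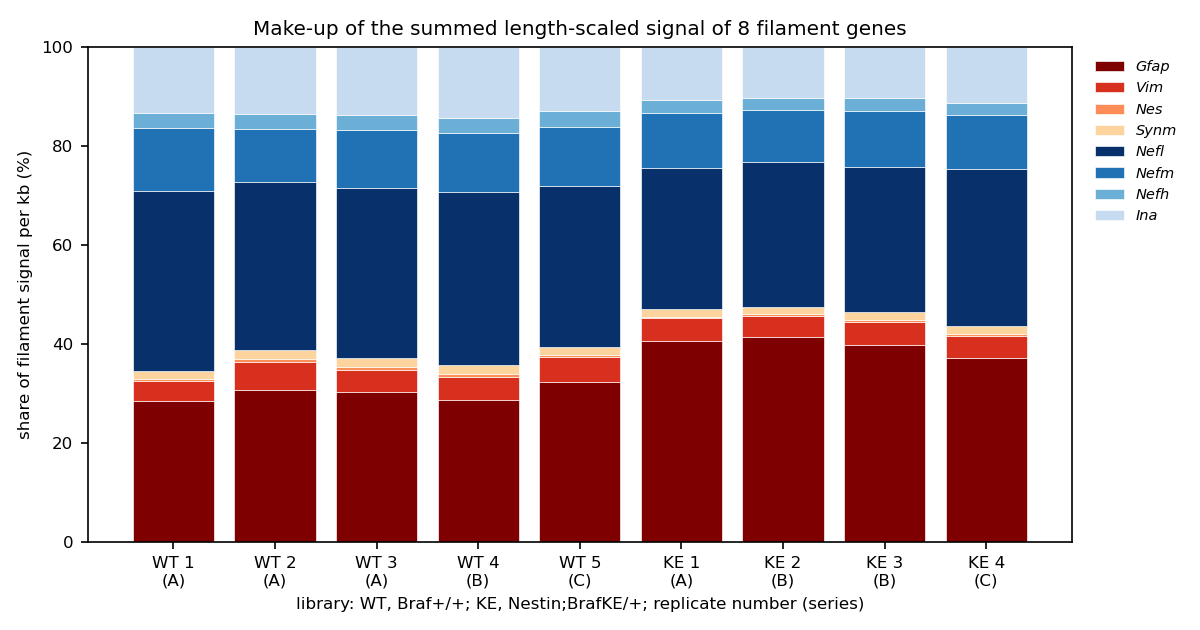
Share (%) of the summed signal per kb taken by each filament gene, 1 stacked bar per animal, with the glial genes in red tones, the neuronal genes in blue tones, WT for Braf+/+, KE for Nestin;BrafKE/+ and the series in brackets. The glial block reaches 43.6% to 47.4% in the 4 Nestin;BrafKE/+ bars and 34.6% to 39.3% in the 5 Braf+/+ bars.

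Whether Gfap rose by more than other genes of astrocytes was examined with 15 astrocyte markers that do not include it, such as Aldh1l1, Aqp4, Slc1a2 and Sox9. Of these, 4 rose and 0 fell at an adjusted p under 0.05 in limma, beside 2.88% of all genes. Those that rose were Ndrg2 (log2 fold change 0.44), Acsbg1 (0.38), Aldoc (0.35) and Atp1b2 (0.27). Of the 15, 13 had a positive log2 fold change, with a median of 0.25. The number that rose was 0 without Nestin;BrafKE/+ replicate 1, 2 without Nestin;BrafKE/+ replicate 3 and 1 without Braf+/+ replicate 4. An unadjusted p under 0.05 in limma was reached by 12 of the 15, all higher, beside 18.5% of all genes. Groups did not overlap for 9 of the 15, beside 15.7%. The summed signal of the 15 was 170400 to 189200 in Nestin;BrafKE/+ and 157800 to 171600 in Braf+/+. Slc1a2, with a negative log2 fold change, had the highest mean (63190 against 65670). The mean log2 level of the 15, less each gene's mean over the 9 libraries, did not overlap (0.098 to 0.178 against -0.125 to -0.074).

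The log2 signal of Gfap less the mean log2 signal of the 15 markers was 1.12, 1.18, 1.03 and 0.83 in Nestin;BrafKE/+ replicates 1 to 4. It was 0.50, 0.56, 0.605 and 0.46 in Braf+/+ replicates 1 to 4 and 0.79 in replicate 5. The groups did not overlap, although Nestin;BrafKE/+ replicate 4 and Braf+/+ replicate 5 were only narrowly apart. The group means differed by 0.46 (1.04 ± 0.15 against 0.581 ± 0.128, SD), with p = 0.0159 in an exact two-sided permutation test over 126 assignments and p = 0.0417, the smallest possible, over 24 assignments within series. Within series A, B and C it amounted to 0.56, 0.65 and 0.05. Leaving out 1 library at a time gave differences from 0.41 to 0.53.

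**Figure D4:**
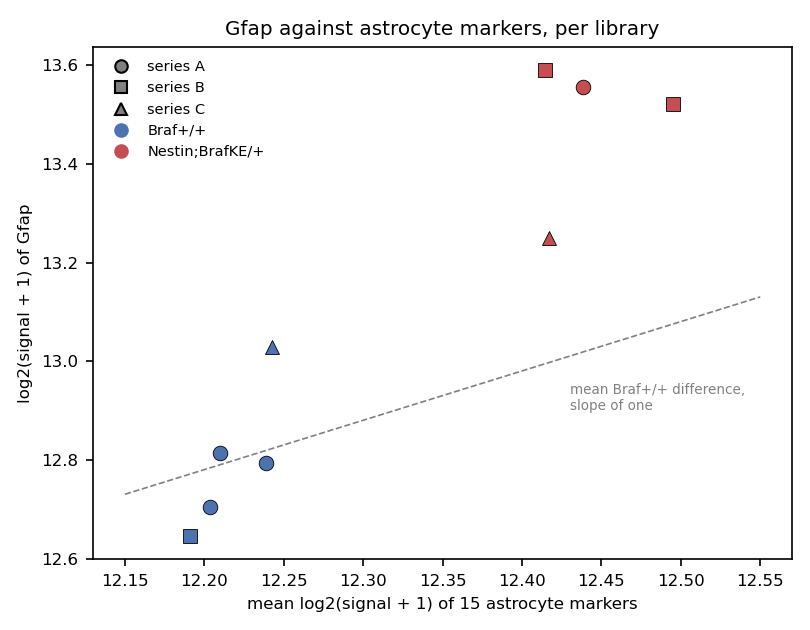
Log2 normalised signal of Gfap (vertical axis) against the mean log2 normalised signal of 15 astrocyte markers (horizontal axis), 1 point per animal, with Braf+/+ in blue, Nestin;BrafKE/+ in red and marker shape for the series. The dashed line marks the mean Braf+/+ difference of 0.581, and the 4 Nestin;BrafKE/+ points lie above it, with the series C animal closest at 0.83.

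Markers of other glia were read beside Gfap. Of 10 oligodendrocyte markers, 4 rose and 0 fell at an adjusted p under 0.05 in limma, beside 2.88% of all genes. The median log2 fold change of the 10 was 0.30, and the 4 that rose were Mobp (0.58), Mog (0.53), Mag (0.41) and Cldn11 (0.39). That count was 0 without Nestin;BrafKE/+ replicate 1, without Nestin;BrafKE/+ replicate 3 and without Braf+/+ replicate 4, 1 without Nestin;BrafKE/+ replicate 2 and 2 without Braf+/+ replicate 2. Their summed signal was 129000 to 139200 in Nestin;BrafKE/+ and 94430 to 114600 in Braf+/+, with no overlap. Of 10 microglia markers, 0 passed in limma and 4 had an unadjusted p under 0.05, all higher, beside 18.5% of all genes, and the median was 0.20. The part of these cell types in the filament values was not tested.

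The wider filament family was read from 24 further genes, namely lamins, keratins, desmin, peripherin, syncoilin and lens filaments. Of these, 22 were in the table and 20 passed the filter, 0 passed an adjusted p under 0.05 in limma, and 5 had an unadjusted p under 0.05 (1 higher and 4 lower), beside 18.5% of all genes. The median log2 fold change was -0.10. The lamins of the nuclear envelope were at -0.03 (Lmna), -0.01 (Lmnb1) and -0.17 (Lmnb2), none of them past the threshold. Peripherin, Prph, a neurofilament partner of peripheral neurons, had a signal of only 22.0 ± 3.82 against 24.6 ± 6.49.

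The 3 lowest unadjusted p in this family belonged to keratins, which are filaments of epithelial cells. Krt2 was at -0.45 on the log2 scale (adjusted p = 0.173, limma) and Krt77 at -0.63 (adjusted p = 0.176, limma). Krt18, a keratin of simple epithelia, was at -1.20 (adjusted p = 0.199, limma). Its signal was 37.1, 18.9, 29.0 and 46.9 in Nestin;BrafKE/+ and 34.8, 147, 65.7, 129 and 49.0 in Braf+/+, and its partner Krt8 was likewise highest in Braf+/+ replicates 2 and 4, at 96.0 and 94.4. These were the libraries with the most choroid plexus signal, a simple epithelium, and its part in the keratin values was not tested.

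A list of 23 genes that link, move, phosphorylate or clear filaments was examined last, of which 22 were tested. Dsp, which encodes desmoplakin, the protein that ties filaments to cell junctions, fell. It alone among the 22 passed an adjusted p under 0.05 in limma, beside 2.88% of all genes. Its signal was 396 to 546 in the 4 Nestin;BrafKE/+ animals and 642 to 836 in the 5 controls, with no overlap. The log2 fold change was -0.78 (SE 0.125, 95% interval -1.05 to -0.50, adjusted p = 0.0106, limma), with -1.03, -0.90 and -0.23 in series A, B and C. The adjusted p rose to 0.104 without Nestin;BrafKE/+ replicate 1 and to 0.0917 without Braf+/+ replicate 4, the same libraries without which Gfap was not called. Of the 22 genes, 7 had an unadjusted p under 0.05 (3 higher and 4 lower), beside 18.5% of all genes, and 7 had groups that did not overlap, beside 15.7%. The largest rise among the 22 was that of Ppl, another linker, named after its value had been seen. Its log2 fold change was 0.71 (adjusted p = 0.0762, limma, groups without overlap).

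Some members of that list act on neurofilaments directly, and those given here were chosen after their values had been seen. Trim2, a ubiquitin ligase of the light subunit, was at -0.18 on the log2 scale (adjusted p = 0.0762, limma). Cdk5, a kinase of the side arms of Nefm and Nefh, was at 0.18 (adjusted p = 0.149, limma), and Kif5a, a motor of neurofilament transport, at -0.07. Plec, which encodes plectin, the broad linker of filaments, was at 0.01. The groups did not overlap for Trim2 and Cdk5, but neither passed the threshold.

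The genes whose pattern over the 9 libraries was most like that of Gfap, by Pearson r of log2 signal after the mean of each series was removed, were Crhbp (r = 0.995), Sh3bgrl3 (0.995), Sulf2 (0.992), Aldh7a1 (0.986) and Ap1s1 (0.984). They came first among 13230 other genes with a mean signal of at least 50, and all 5 were higher in Nestin;BrafKE/+, with log2 fold changes from 0.29 to 0.58. Among the filament genes the r with Gfap was 0.756 for Nefm, 0.726 for Nefl, 0.701 for Vim, 0.471 for Synm, 0.394 for Nefh, -0.43 for Ina and -0.60 for Nes. In that order Nefm stood at rank 1258 and Nes at rank 10774. All points share the 9 libraries and the genotype difference, and the r is a description. Of the 4 Nestin;BrafKE/+ values, the lowest of Gfap, Vim, Nefl, Nefm, Nefh and Ina was in replicate 4.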

How the data were processed

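Stranded mRNA libraries (TruSeq kit) had been made from the hippocampus of 4 Nestin;BrafKE/+ and 5 Braf+/+ mice. Per the labels and methods, the authors used TrimGalore, STAR (GRCm39) and Salmon, removed the effect of batches whose identity is not given, and scaled the result with DESeq2. The deposited values are a signal in normalised counts. Whole numbers in them come after the adjustment and are not reads, so count models were not used, and the depth behind a value is unknown.

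Groups came from the labels. The model was limma 3.58.1 (R 4.3.3, lmFit and trended eBayes) on log2(value + 1) with a genotype and a series term, for genes whose mean was 10 or more. Its two-sided p was adjusted over the 16196 genes (Benjamini-Hochberg), and adjusted values under 0.05 were called. Fold changes are on that log2 scale. Single values were tested with exact permutation tests. The steps were tested on simulated data. Python 3.11.15, pandas 2.3.3 and matplotlib 3.10.9 served for values and figures.

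The members and lists were chosen with earlier results of these data known. All 8 members are named, with genes of the 2 further filament lists past the threshold (otherwise the 3 lowest p), and the 5 genes most like Gfap. Positions are from Gencode vM39 on GRCm39. The settings varied were the pseudocount (0.5, 8), the minimum mean (none, 50), quantile normalisation, no series term, 4 name prefixes as series, a replicate block and leaving out each library. All per-sample columns were used.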

Additional observations from a re-analysis of the deposited data

Results flagged for a closer look

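Among 18 groups of values (8 genes and the Gfap difference from astrocyte markers, in each genotype), 1 held a value far from the others. It was the Nefh value of Braf+/+ replicate 5, where the gap to the nearest control was 0.894 of the range of the 5 controls. Chance flags about 1 in 20 groups. The same animal had the highest Ina value of all 9 and, among the controls, the highest Gfap value.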

How the results depend on the processing

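Under 17 alternatives for each of the 8 filament genes, 129 of 136 values kept their direction and their side of the threshold. Gfap stayed between 0.56 and 0.84 on the log2 scale, and leaving out a library moved the count of glial genes past the threshold from 1 to between 0 and 1, with 0 without Nestin;BrafKE/+ replicate 1 or Braf+/+ replicate 4. Nefh turned to -0.0201 with 4 name prefixes as series, and leaving out a library gave -0.12 to 0.17, negative without Nestin;BrafKE/+ replicate 1, Nestin;BrafKE/+ replicate 3 or Braf+/+ replicate 4. The number of genes past the threshold, 466, was 2260 without the series term and 165 with 4 name prefixes, and 42 to 371 when a library was left out, lowest without Nestin;BrafKE/+ replicate 1. With a series term, leaving out the only library of a genotype in a series takes that whole series out of the genotype estimate. Nestin;BrafKE/+ replicate 1 was such a library, in series A with 3 controls, and Braf+/+ replicate 4 was another, in series B. How much of the changes in number this accounts for was not tested.

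With the replicate number as a replicate block, 1405 genes passed, and 1 of the 4 neuronal genes did, Nefm (log2 fold change 0.22, adjusted p = 0.0372, limma). The numbers share no known litter or day, and same-numbered libraries deviated with correlations of -0.39, -0.0779, 0.0686 and 0.415, so they are not taken as pairs, and of the 4 numbers only replicate 4 correlated best with its own. TMM, edgeR and DESeq2 were not run, since the values are not reads.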
